A study of Mus musculus with 5 samples.

Results

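The genes described here are 10 of MHC antigen presentation, H2-Aa, H2-Ab1, H2-Eb1, Cd74, Ciita, H2-K1, H2-D1, B2m, Tap1 and Psmb8, taken by name from the 31053 genes in the files. Cells display peptides to T cells on major histocompatibility complex (MHC) molecules, and the genes of this machinery fall into a pair of systems. Class I molecules are built from a heavy chain, such as those encoded by H2-K1 and H2-D1, and the light chain B2m. Nearly all nucleated cells carry them, loaded with peptides that the immunoproteasome subunit Psmb8 helps to cut and that the Tap1 transporter brings into the endoplasmic reticulum. Class II molecules are made mainly by macrophages, dendritic cells and B cells. H2-Aa and H2-Ab1 encode the chains of I-A, H2-Eb1 encodes the beta chain of I-E, Cd74 is the invariant chain that guards the peptide groove, and Ciita is the transactivator that class II transcription depends on. In C57BL/6 mice no I-E reaches the cell surface, since its alpha chain gene is defective, so H2-Eb1 RNA there does not stand for a displayed molecule. Interferon gamma induces both systems in many cell types, and whether hepatic stellate cells, the vitamin A-storing cells of the liver that turn into collagen-producing cells after injury, act as class II antigen-presenting cells has been debated.

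The genes were measured in 5 single-cell RNA libraries of sorted liver cells, 1 library in each group. All were made from male Rosa26mTmG;Col1a1-Cre mice on the C57BL/6J background, in which a Cre driven by the Col1a1 promoter switches a cell and its descendants from tomato to green fluorescence, so that Col1a1+ means past or present Cre activity and not a measured collagen level. The DEN+WAD mice received the carcinogen diethylnitrosamine (DEN, 10 mg/kg) at 2 weeks of age, and from 6 weeks of age a liquid Western alcohol diet (WAD, ethanol at 3.5% v/v) for 5 months. The chow mice received saline in place of DEN and were fed chow. VitA+ and VitA- stand for the presence and absence of vitamin A autofluorescence in the sort. The groups were VitA+Col1a1+ chow, VitA+Col1a1+ DEN+WAD, VitA-Col1a1+ chow, VitA-Col1a1+ DEN+WAD and a VitA-Col1a1- DEN+WAD library. How many animals were pooled in a library is not given in the sources used here.

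The 5 libraries held 259, 10481, 668, 2729 and 9870 cells in that order, and between 6145748 and 149936344 unique molecular identifiers (UMIs, each 1 counted RNA molecule). Levels are given as counts per 1000000 UMIs of the same cells (CPM), with exact Poisson 95% intervals for levels and exact conditional binomial 95% intervals for ratios. With 1 library per group no test between groups was possible, and every interval covers counting error only. Col1a1 RNA was at 1062 CPM in the library labelled VitA-Col1a1-, against 304 and 958 CPM in the Col1a1+ DEN+WAD libraries, so no direction is drawn from that label. The stellate marker list stood at 45102 and 49838 CPM in the VitA+ libraries and at 12345 to 26038 CPM in the other 3 (10 of 10 genes found in each). Ptprc, which marks leukocytes, had 0 UMIs in each of the 4 Col1a1+ libraries, which with a floor of 3 UMIs is 0.488 CPM in the smallest, and whether leukocytes had been taken out before deposit is not given in the sources used here. C1qa, which marks macrophages, had 0, 5, 0 and 6 UMIs there, against 99753 in the library labelled VitA-Col1a1-. Pairs of libraries shared 0 to 21 cell barcodes.

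**Figure D1:**
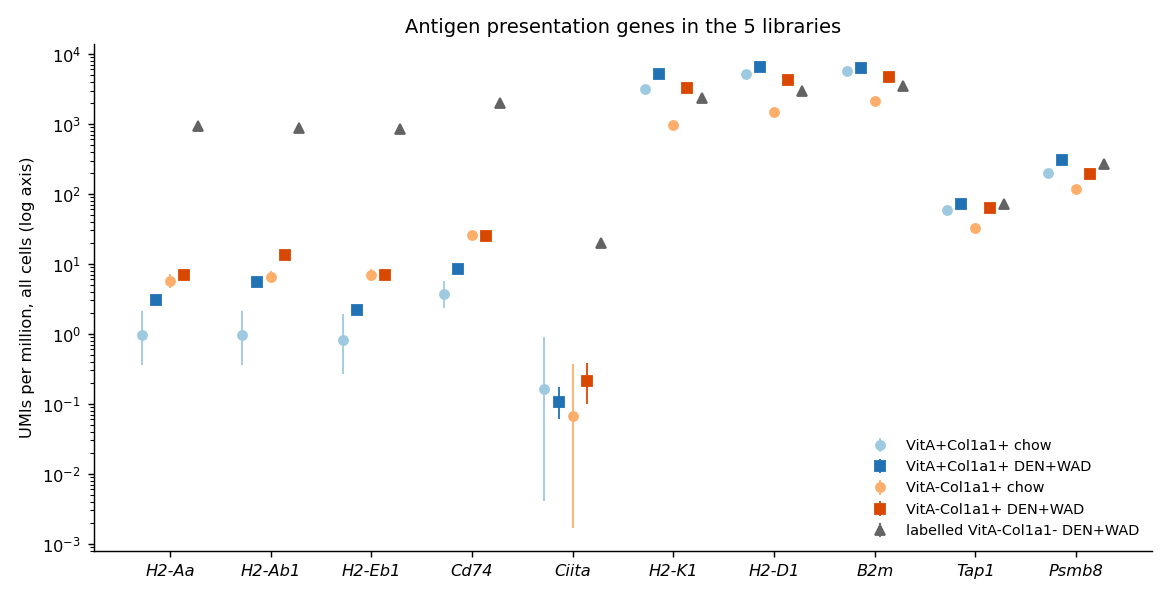
CPM (log axis) of the 10 genes in all cells of each of the 5 libraries, with exact Poisson 95% intervals. Class II genes and Ciita were far higher in the library labelled VitA-Col1a1- (Cd74 1997 CPM) than in the 4 Col1a1+ libraries (Cd74 3.74 to 25.5 CPM), whereas H2-K1, H2-D1 and B2m were lowest in VitA-Col1a1+ chow (H2-K1 976 CPM) and highest in VitA+Col1a1+ DEN+WAD (H2-K1 5239 CPM).

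Of the 10 genes 7 lie in the mouse MHC on chromosome 17 of GRCm38. From the lower coordinate up they are H2-K1 (ENSMUSG00000061232, chr17:33996017-34000347, minus strand), Tap1 (ENSMUSG00000037321, chr17:34187553-34197225, plus), Psmb8 (ENSMUSG00000024338, chr17:34197721-34201454, plus), H2-Ab1 (ENSMUSG00000073421, chr17:34257689-34269419, plus), H2-Aa (ENSMUSG00000036594, chr17:34282744-34287823, minus), H2-Eb1 (ENSMUSG00000060586, chr17:34305867-34316674, plus) and H2-D1 (ENSMUSG00000073411, chr17:35262730-35267499, plus). The others lie elsewhere: B2m (ENSMUSG00000060802) at chr2:122147686-122153083, Ciita (ENSMUSG00000022504) at chr16:10480059-10528418 and Cd74 (ENSMUSG00000024610) at chr18:60803848-60812652, all on the plus strand. All 10 are protein-coding.

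The class I heavy chains and light chain were abundant in every library and were lowest in VitA-Col1a1+ chow. H2-K1 stood at 3144 and 5239 CPM in the VitA+Col1a1+ libraries of chow and DEN+WAD mice, at 976 and 3272 CPM in the VitA-Col1a1+ pair, and at 2350 CPM in the library labelled VitA-Col1a1-. In the same sequence of libraries H2-D1 stood at 5193, 6487, 1486, 4227 and 2939 CPM. B2m stood at 5632, 6220, 2157, 4685 and 3481 CPM. For all 3 genes the VitA+Col1a1+ DEN+WAD library was the highest and VitA-Col1a1+ chow the lowest, and H2-K1 alone stood higher in VitA-Col1a1+ DEN+WAD than in VitA+Col1a1+ chow. Summed over the 3, class I RNA in VitA-Col1a1+ chow was 0.331 times (0.327 to 0.334) that in VitA+Col1a1+ chow, and in DEN+WAD the same ratio between the gates was 0.679 (0.677 to 0.681). Nearly every cell contributed: after thinning each cell to 2000 UMIs, B2m was found in 92.6% of cells in VitA-Col1a1+ chow and in 99.0% to 100% of cells in the other libraries (99.1% and 97.9% to 99.7% without thinning).

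Class I RNA was higher in DEN+WAD than in chow in both Col1a1+ gates, and the ratio was larger in the VitA- gate. In the VitA+ gate H2-K1 was 1.67-fold higher (1.64 to 1.69), H2-D1 1.25-fold and B2m 1.10-fold. In the VitA- gate H2-K1 was 3.35-fold higher (3.29 to 3.41), H2-D1 2.85-fold and B2m 2.17-fold. All intervals lay above 1, and those of the gates did not overlap for any of the 3 genes. The summed class I level went from 13969 to 17946 CPM in VitA+ (log2 0.36) and from 4619 to 12183 CPM in VitA- (log2 1.40). Whether the gates differed in this was not tested, since each rests on 1 library per arm. H2-K1, H2-D1 and the H2-Q genes are near copies of each other. Reads that fit several of them are not counted at the default settings, so their single values are less certain than that of B2m.

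The genes that supply class I peptides were higher in DEN+WAD as well, by less than 2-fold. Tap1, a subunit of the peptide transporter, stood at 59.4 and 71.3 CPM in the VitA+ chow and DEN+WAD libraries, 32.9 and 62.4 in the VitA- pair, and 70.7 in the library labelled VitA-Col1a1-. Psmb8, the catalytic immunoproteasome subunit, stood at 196 and 300 CPM, 118 and 192 CPM, and 264 CPM. The folds were 1.20 (1.08 to 1.34) for Tap1 and 1.53 (1.45 to 1.62) for Psmb8 in VitA+, and 1.90 (1.72 to 2.09) for Tap1 and 1.62 (1.54 to 1.70) for Psmb8 in VitA-. Psmb8 intervals overlapped between the gates and Tap1 intervals did not.

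**Figure D2:**
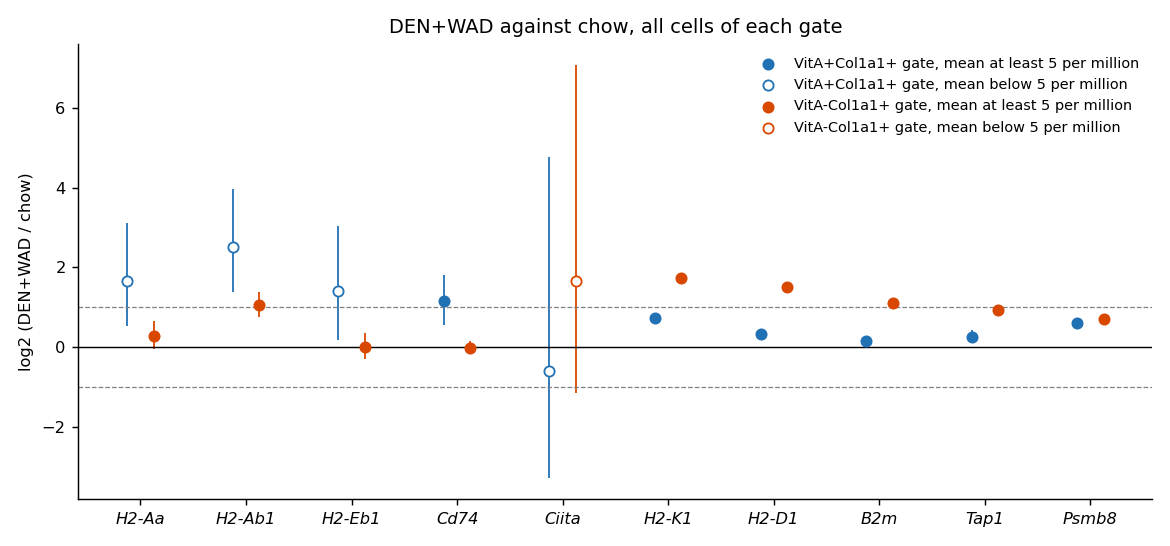
Log2 ratio of DEN+WAD to chow for each gene in the VitA+Col1a1+ and VitA-Col1a1+ gates, all cells, with exact conditional binomial 95% intervals. Dashed lines mark 2-fold, and open points are genes whose mean over the pair of libraries was under 5 CPM. Class I genes lay higher in the VitA- gate (H2-K1 log2 1.75 against 0.74), and Cd74 and H2-Eb1 lay near 0 in that gate.

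A gene was counted as higher where the DEN+WAD level was 2-fold or more that of chow, among genes with a mean of at least 5 CPM over both libraries. In the VitA+ gate 6 of the 10 genes reached that mean and 1, Cd74, was higher, against 0.970% of 9592 genes counted. Cd74 stood under 5 CPM in chow (3.74) and reached the mean only through the DEN+WAD library (8.35), so the count of 1 depends on that limit. None was lower, against 3.11% of all genes counted. The median log2 ratio over the 6 was 0.47, and over all genes counted it was -0.07. In the VitA- gate 9 of the 10 reached the mean and 4 were higher (H2-K1, H2-D1, B2m and H2-Ab1), against 4.39% of 10241 genes counted. None was lower, against 4.94% of all genes counted, with a median log2 of 0.92 against -0.03. Counted in Lrat-positive cells without Ptprc, none of 5 genes was higher in VitA+ (1.07% of all genes counted) and none was lower (2.28% of all genes counted), and 3 of 9 were higher in VitA- (3.77% of all genes counted) with none lower (6.25% of all genes counted). Lrat encodes the enzyme that esterifies retinol and marks stellate cells.

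Other class I chains were higher in DEN+WAD in the VitA- gate, like H2-K1 and H2-D1, and were divided in the VitA+ gate. Of 10 such genes 8 reached the mean in each gate. In VitA- 7 of these 8 were higher and none lower, with a median log2 of 1.60. The highest ratios were those of H2-Q6 (20.4 to 242 CPM, log2 3.57) and H2-Q7 (89.9 to 703 CPM, log2 2.97), which encode nonclassical class I chains and are near copies of each other. In VitA+ 2 were higher, H2-Q7 (583 to 1300 CPM, log2 1.16) and H2-T24 (3.42 to 7.67 CPM, log2 1.17), and 2 were lower, H2-Q4 (552 to 269 CPM, log2 -1.04) and H2-Q10 (18.6 to 4.66 CPM, log2 -1.99). H2-T24 reached the mean of 5 CPM only through DEN+WAD, and H2-Q10 only through chow. H2-Q10 encodes a class I chain that hepatocytes secrete. The median log2 of the 8 was 0.67. Of 11 further genes of class I peptide trimming and loading, such as Tap2, Tapbp and Psmb9, all reached the mean and none was 2-fold different in either gate (median log2 0.10 in VitA+ and 0.33 in VitA-).

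Genes that drive MHC transcription differed less than the class I chains. The list of 14 held the enhanceosome subunits, the class I transactivator Nlrc5 and genes of the interferon gamma response such as Irf1. In VitA+ none of the 14 was 2-fold different (median log2 0.02), and in VitA- 1 was higher, Nlrc5, at 4.001 and 8.754 CPM (2.19-fold, 1.67 to 2.92). Nlrc5 reached the mean of 5 CPM only through the DEN+WAD library, where it was high. Nlrc5 stood at 12.2 and 10.6 CPM in the VitA+ pair. Rfx5, a subunit of the complex that binds the X box of class II promoters, stood at 9.54 and 6.89 CPM in the VitA- pair (log2 -0.47). Among the pathway genes the lowest ratio in VitA- was that of Icosl, a costimulatory ligand for T cells, at 56.5 and 20.5 CPM (log2 -1.46). Of 12 genes induced by type I interferon 11 reached the mean, of which 5 were higher in VitA- and none in VitA+, where 1, Oas1a, was lower. Isg15, the ubiquitin-like member of that list, stood at 1282 and 1578 CPM in the VitA+ pair and 484 and 1000 CPM in the VitA- pair.

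The 3 class I promoters and a pair of class II promoters are shown because the genes within each class differed between libraries in nearly the same order. Sequences are from RefSeq on GRCm38.p6, 5′ to 3′ on the strand of the gene, and capitals mark matches on either strand to the letters searched. These were the NF-kB site GGGGATTCC, GAANNGAAA (the interferon-stimulated response element as class I genes carry it, added after these promoters had been read), GAAANNGAA (the core of that element in other genes), the Y box CCAAT, the X box core TAGNNACAG and the gamma-activated site TTCNNNGAA. None of the matches shown overlap. The stretches begin 111 and 171 bases before the start of H2-K1 and H2-D1, 150 before that of B2m and 120 before those of H2-Aa and H2-Eb1. These starts are those of RefSeq, and for H2-D1 the RefSeq start lies inside the longer GENCODE span given above, so that the stretch shown does too.
H2-K1, chr17:34000429-34000458, minus strand: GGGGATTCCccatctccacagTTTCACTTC
H2-D1, chr17:35262923-35262952, plus strand: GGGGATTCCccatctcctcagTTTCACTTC
B2m, chr2:122147537-122147656, plus strand: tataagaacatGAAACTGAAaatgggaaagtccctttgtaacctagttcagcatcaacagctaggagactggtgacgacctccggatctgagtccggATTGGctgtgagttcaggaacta
H2-Aa, chr17:34287824-34287943, minus strand: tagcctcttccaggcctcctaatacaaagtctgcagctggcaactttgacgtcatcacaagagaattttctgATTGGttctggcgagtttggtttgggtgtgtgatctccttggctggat
H2-Eb1, chr17:34305747-34305866, plus strand: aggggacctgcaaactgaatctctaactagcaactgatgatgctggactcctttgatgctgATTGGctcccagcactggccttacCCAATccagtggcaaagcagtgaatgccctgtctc

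The H2-K1 and H2-D1 stretches were identical at 29 of 30 bases. Within 250 bases upstream, 7 of the 10 genes had a promoter in the table. The NF-kB site was found in H2-K1 and H2-D1 and in 0.218% of 27025 promoters, and GAANNGAAA in the same pair of genes and in 6.34% of promoters. GAAANNGAA was found in B2m alone of the 7 (7.16% of promoters), and the gamma-activated site in Psmb8 alone (7.18%). The Y box was found in 6 of the 7, all but Psmb8, and in 34.5% of promoters. The X box letters as written were found in none of the 7 and in 3.67% of promoters. A match of letters is a description of sequence only.

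In the class II genes the 4 Col1a1+ libraries held little RNA. H2-Aa stood at 0.976 and 3.08 CPM in the VitA+Col1a1+ libraries of chow and DEN+WAD mice, at 5.74 and 6.99 CPM in the VitA-Col1a1+ pair, and at 933 CPM in the library labelled VitA-Col1a1-. In the same sequence H2-Ab1 stood at 0.976, 5.59, 6.47, 13.5 and 875 CPM. H2-Eb1 stood at 0.814, 2.16, 6.87, 6.93 and 859 CPM. The invariant chain Cd74 stood at 3.74, 8.35, 25.5, 25.3 and 1997 CPM. The VitA+ chow library was lowest for all 4 genes and the library labelled VitA-Col1a1- highest, and between the VitA- pair the counting intervals of the ratios for H2-Aa, H2-Eb1 and Cd74 held 1. Summed over the 4, class II RNA was 88.5-fold higher (85.1 to 92.0) in the library labelled VitA-Col1a1- than in VitA-Col1a1+ DEN+WAD, while summed class I RNA was 0.720 times as high (0.718 to 0.722). Between the Col1a1+ gates class II ran opposite to class I, with VitA- above VitA+ by 6.85-fold in chow (4.98 to 9.68) and 2.75-fold in DEN+WAD (2.61 to 2.90). The chow ratio rested on few cells: it was 12.3 (5.86 to 30.9) without the cell with the most class II UMIs in each library, 45.7 (22.04 to 114) in Lrat-positive cells and 1.42 (0.237 to 6.21) in cells with Lrat above 1000 CPM, where 3 and 7 UMIs were counted. In DEN+WAD these ratios were 2.64, 3.04 and 1.87 (1.64 to 2.13).

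Ciita was close to the limit of detection in the Col1a1+ libraries. It had 1, 16, 1 and 10 UMIs in VitA+Col1a1+ chow, VitA+Col1a1+ DEN+WAD, VitA-Col1a1+ chow and VitA-Col1a1+ DEN+WAD, which are 0.163, 0.107, 0.0667 and 0.210 CPM. In the library labelled VitA-Col1a1- it had 2124 UMIs, or 20.1 CPM, 95.7-fold higher than in VitA-Col1a1+ DEN+WAD (52.0 to 200). The DEN+WAD to chow ratio of Ciita was 0.656 in VitA+ (0.102 to 27.5) and 3.15 in VitA- (0.448 to 137), so that no difference was detectable at this depth.

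In the VitA+ gate class II RNA was higher in DEN+WAD. The ratios were 3.15 for H2-Aa (1.44 to 8.63), 5.73 for H2-Ab1 (2.62 to 15.6), 2.66 for H2-Eb1 (1.13 to 8.24) and 2.23 for Cd74 (1.48 to 3.53). The chow arm rested on 40 class II UMIs in all, 33 of which lay in 1 cell. That cell had no Lrat and no Col1a1 UMI but 727 UMIs of Spp1, 148 of Krt8 and 18 of Epcam, genes of bile duct epithelium. Without the cell with the most class II UMIs in each library, the summed class II levels were 1.14 CPM in chow and 17.7 CPM in DEN+WAD, and the log2 ratio went from 1.56 to 3.95. In cells without Lrat, 14 in chow including that cell and 306 in DEN+WAD, the class II ratio was below 1, at 0.345 (0.231 to 0.527). Summed bile duct marker levels were 243 CPM in the VitA+ chow library and 57.6 CPM in the DEN+WAD library.

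Among Lrat-positive cells without Ptprc, 245 VitA+ chow cells held 7 class II UMIs (1.18 CPM) and 10175 VitA+ DEN+WAD cells held 2772 (18.7 CPM), a ratio of 15.9 (7.70 to 39.5). H2-Ab1 had 0 UMIs in the chow cells and 816 in the DEN+WAD cells, at least 10.9-fold higher against a floor of 3 UMIs in the chow class, with an exact interval from 8.85. Cd74 had 3 UMIs against 1186, a ratio of 15.9 (5.41 to 77.0). The share of these cells with any class II UMI, thinned to 2000 UMIs, was 0.410% in chow (0.0104% to 2.26%) and 1.55% in DEN+WAD (1.32% to 1.81%), and without thinning it was 2.04% and 4.97%. The thinned intervals of the shares overlapped.

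In the VitA- gate the class II ratio depended on 1 cell. H2-Ab1 was 2.08-fold higher in DEN+WAD (1.68 to 2.61), while H2-Aa was at 1.22 (0.959 to 1.56), H2-Eb1 at 1.01 (0.806 to 1.27) and Cd74 at 0.991 (0.883 to 1.12). The summed level was 44.6 CPM in chow and 52.7 CPM in DEN+WAD (log2 0.24). In chow 460 of the 669 class II UMIs came from 1 cell, which had the most UMIs of that library (135909), 2037 UMIs of Col1a1, 1 of Lrat, 2 of Tyrobp and 0 of C1qa, C1qb, C1qc, Ptprc, Pecam1, Cd79a and Epcam. Without the cell with the most class II UMIs in each library, the levels were 14.1 and 46.7 CPM, and the log2 ratio was 1.73. In Lrat-positive cells without Ptprc, 484 in chow and 1920 in DEN+WAD, the levels were 53.9 and 56.9 CPM, a ratio of 1.06 (0.964 to 1.16). Cd74 alone stood at 31.6 CPM in those chow cells and at 27.2 CPM in those DEN+WAD cells. Restricted to cells with Lrat above 1000 CPM, 791 DEN+WAD cells had 275 class II UMIs and 81 chow cells had 3, a ratio of 12.3 (4.17 to 60.1). In cells above 0 to 250 CPM of Lrat, which include the cell of 460 UMIs, the ratio was below 1, at 0.781 (0.699 to 0.872). It was 2.85 in cells without Lrat (2.13 to 3.89) and 3.71 above 250 to 1000 CPM (2.99 to 4.66).

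**Figure D3:**
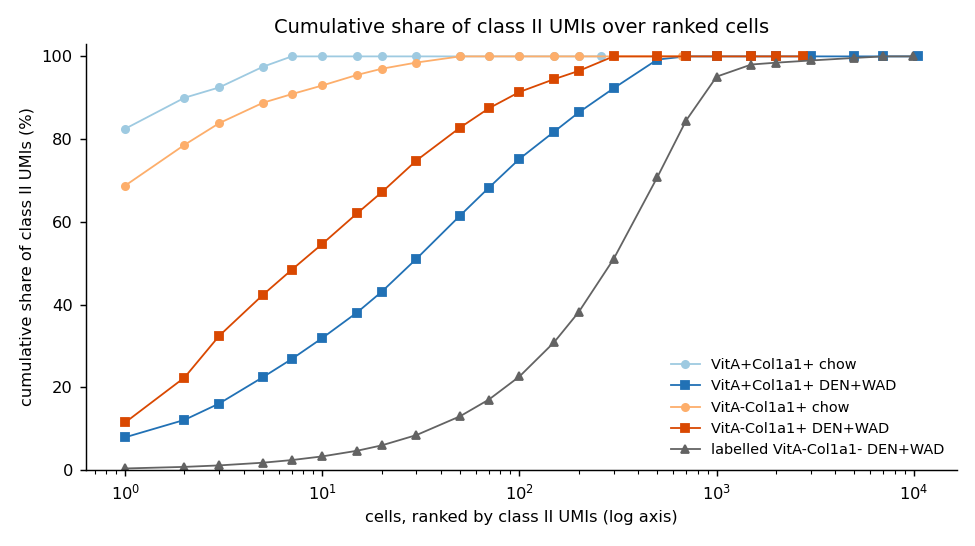
Cumulative share (%) of class II UMIs (H2-Aa, H2-Ab1, H2-Eb1 and Cd74 summed) held by the cells of each library, ranked by class II UMIs (log axis). In both chow libraries 1 cell held most of them (82.5% in VitA+ and 68.8% in VitA-), whereas 10 cells of VitA-Col1a1+ DEN+WAD held 54.7%, and in the library labelled VitA-Col1a1- 10 cells held 3.32%.

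Class II UMIs were concentrated in few cells in the DEN+WAD Col1a1+ libraries as well. With a limit of 10 class II UMIs per cell, set after the values had been seen, 61 of 10481 VitA+ cells held 65.5% of the class II UMIs and 42 of 2729 VitA- cells held 80.3%. Of these, 57 and 32 were Lrat-positive. Among the 57, 51 had no UMI of C1qa, C1qb, C1qc, Tyrobp, Fcer1g, Cd79a, Flt3, Itgax, Pecam1, Epcam, Krt7 or Krt19, and among the 32 this held for 29. Of the Lrat-positive cells under the limit, it held for 9911 of 10118 in VitA+ and 1680 of 1888 in VitA-. Stellate genes were divided in the VitA+ cells against the Lrat-positive cells under the limit. Des and Pdgfrb were higher, at 420.1 against 319.5 CPM and 290 against 243.5 CPM, and the following were lower. Lrat, which chose the cells, stood at 1030 CPM against 1521, Dcn, a matrix proteoglycan, at 17805 against 26509, Colec11, a collectin, at 2629 against 6220 and Reln, which encodes reelin, at 727 against 1185. Col1a1 was higher in them, at 2496 CPM against 281 in VitA+ and 2131 against 945 in VitA-.

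In these cells H2-DMa, which edits class II peptides and was not used to choose them, stood at 33.4 CPM against 0.962 in VitA+ and at 67.6 against 1.16 in VitA-. Cxcl9, a chemokine induced by interferon gamma and named after its values were seen, stood at 650 against 32.9 CPM and at 1594 against 39.6 CPM. Their depth was also greater, with a median of 23138 UMIs against 13306.5 in VitA+ and 25269 against 17255 in VitA-, and a limit in UMIs favours deep cells. H2-K1 stood at 6020 against 5267 CPM in VitA+ and 4827 against 3620 CPM in VitA-. H2-D1 was lower in VitA+, at 5910 against 6546 CPM, and stood at 5000 against 4863 CPM in VitA-. B2m stood at 6543 against 6248 CPM and at 5802 against 4967 CPM. Ciita was found in 1 of the 57 and 1 of the 32 cells. Over whole libraries Cxcl9 stood at 1.30 and 44.5 CPM in the VitA+ pair, 4.93 and 107 CPM in the VitA- pair and 137 CPM in the library labelled VitA-Col1a1-. Ifng itself had 0 UMIs in all 4 Col1a1+ libraries, against 211 for the library labelled VitA-Col1a1-.

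Macrophage RNA was scarce in the Col1a1+ libraries. The 12 macrophage genes summed to 4.23 and 5.92 CPM in the VitA+ pair (4 and 10 of 12 found) and to 32.6 and 28.0 CPM in the VitA- pair (6 and 8 of 12 found), of which Lyz2 gave 23.5 and 10.0 CPM. C1qb had 0, 12, 1 and 6 UMIs in the 4 libraries, and Clec4f, a Kupffer cell marker, had 0, 1, 0 and 0. In the library labelled VitA-Col1a1- the 12 genes were all found and summed to 6391 CPM. Of the 10 dendritic cell genes 5, 6, 7 and 6 were found in the 4 Col1a1+ libraries, with sums of 50.3, 39.3, 43.6 and 67.9 CPM. Most of each sum came from Fscn1 (25.3 to 49.3 CPM) and Zbtb46 (9.97 to 22.3 CPM), which other cell types also use, while the defining genes Flt3 and Siglech had 0 UMIs in all 4 and Itgax had 1 in all. The B cell gene Cd79a had 0, 13, 3 and 14 UMIs. Leaving out cells with Ptprc or C1qa removed no chow cell and only 4 and 5 DEN+WAD cells, and gave log2 ratios of summed class II RNA of 1.55 in VitA+ and 0.19 in VitA-.

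The library labelled VitA-Col1a1- held enough cells of each marker class to compare them. There were 4657 Lrat-positive cells without Ptprc, 3311 Pecam1-positive cells (Pecam1 marks endothelium) and 3008 C1qa-positive cells. The classes overlapped, since 1017 of the C1qa-positive cells were also in the Lrat class and 1052 were also Pecam1-positive, and no doublet caller was run. Summed class I RNA was 9899 CPM in the Lrat class, 8002 in the Pecam1 class and 8362 in the C1qa class. The class I sums thus lay within 1.24-fold of each other. Tap1 (60.1, 79.1 and 83.3 CPM) and Psmb8 (218, 258 and 334 CPM) were lowest in the Lrat class, where H2-K1, H2-D1 and B2m were highest.

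Class II genes separated the classes. Cd74 stood at 63.2 CPM in the Lrat class, 2258 in the Pecam1 class and 4796 in the C1qa class. H2-Aa stood at 31.0, 1064 and 2245 CPM, and Ciita at 0.854, 24.8 and 47.3 CPM. The Pecam1 value rested on cells that also had UMIs of other gating genes. In 1546 cells with Pecam1 and none of Lrat, C1qa and Ptprc, Cd74 stood at 55.7 CPM and summed class II RNA at 147 CPM, against 5268 CPM in the whole Pecam1 class. In 3007 cells with Lrat alone of the gating genes, Cd74 stood at 52.9 CPM and the sum at 134 CPM. In 1055 cells with C1qa and neither Lrat nor Pecam1, with Ptprc allowed, the sum was 19628 CPM.

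The C1qa class was itself mixed. In 1082 cells with at least 5 UMIs of C1qa the class II sum was 21384 CPM, with Ptprc at 338 and Lrat at 43.6 CPM. In 1926 cells with 1 to 4 UMIs of C1qa it was 649 CPM, with Ptprc at 21.9 and Lrat at 526 CPM, so that the latter cells mostly lacked the leukocyte marker. Of the 1082 cells, 752 with Clec4f had 7677 CPM of Cd74, and 330 without it had 13057. Summed class I RNA stood at 7882 and 8375 CPM in these same cells. Cells with Cd79a, a B cell gene, had 5903 CPM of Cd74 (56 cells).

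The level of class II RNA in Lrat-positive cells was set against the level that macrophage RNA would bring into their droplets. C1qb and C1qc together stood at 47.7 CPM in the Lrat class and at 4348 CPM in the C1qa class, 1.10% of it. If macrophage RNA entered in 1 ratio, it would carry 123 CPM of class II RNA, and 158 CPM were observed, 1.29 times as much (1.23 to 1.34). By gene the ratio of observed to carried was 1.20 for Cd74 (1.14 to 1.26), 1.26 for H2-Aa, 1.34 for H2-Eb1, 1.45 for H2-Ab1 and 1.64 for Ciita (1.21 to 2.19). Macrophage genes on the same scale ranged from 0.845 for Clec4f and 0.889 for Cd5l through 1.004 for Ctss and 1.25 for Tyrobp to 1.96 for Lyz2. Apart from Cd74, the class II ratios and that of Ciita lay inside this range only through Lyz2, since the other macrophage genes named ended at 1.25. Lyz2 also stood at 23.5 CPM in VitA-Col1a1+ chow, where C1qa had 0 UMIs. H2-DMa stood at 1.68 times its carried level (1.47 to 1.92). With Tyrobp and Fcer1g as the reference in place of C1qb and C1qc, the class II ratio was 0.840, and with Cd5l, Vsig4, Csf1r and Clec4f it was 1.46. With C1qb and C1qc but only the 1055 C1qa-positive cells without Lrat or Pecam1 as the source, 136 CPM would be carried. The class II ratio was then 1.16 (1.11 to 1.21).

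For class I the same calculation gave 108 times the carried level in the Lrat class (104 to 112), with 102 for H2-D1, 109 for H2-K1, 113 for B2m, 65.7 for Tap1 and 59.6 for Psmb8. In the 2179 Pecam1-positive cells without Ptprc or C1qa, observed class II RNA was 131 CPM against 132 carried, a ratio of 0.997 (0.926 to 1.07), and the class I ratio was 81.7. With the C1qa-positive cells without Lrat or Pecam1 as the source, the class I ratios were 186 in the Lrat class and 141 in these Pecam1-positive cells. The class II ratio in the latter was then 0.900 (0.837 to 0.969). T cells of the mouse lack class II transcription, and 118 cells with Cd3e and without C1qa or Cd79a had 72.2 CPM of Cd74 and 171 CPM of summed class II RNA, levels at or above those of the Lrat class. The thinned share of cells with Cd74 was 9.35% in the Lrat class (8.51% to 10.3%) and 14.0% in the Cd3e cells (8.06% to 22.1%). Without thinning it was 36.2% and 34.8%, at medians of 11224 and 4604 UMIs per cell. The thinned share in the Lrat class was thus no higher than in the Cd3e cells, a comparison chosen after values had been seen. The classes differ in depth, so the share in the Lrat class is not read as expression or as its absence, which was not tested. For the class II genes together the thinned shares were 20.8% in the Lrat class and 33.6% in the Cd3e cells. The share with Cd74 was 47.6% in the C1qa class (63.9% without thinning). Ciita was found in 0.182% of thinned cells in the Lrat class (0.0784% to 0.357%) and in 0 of 107 thinned Cd3e cells, for which the floor of 3 cells is 2.80% and the exact interval reaches 3.39%, a limit on cells with a UMI at that depth.

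**Figure D4:**
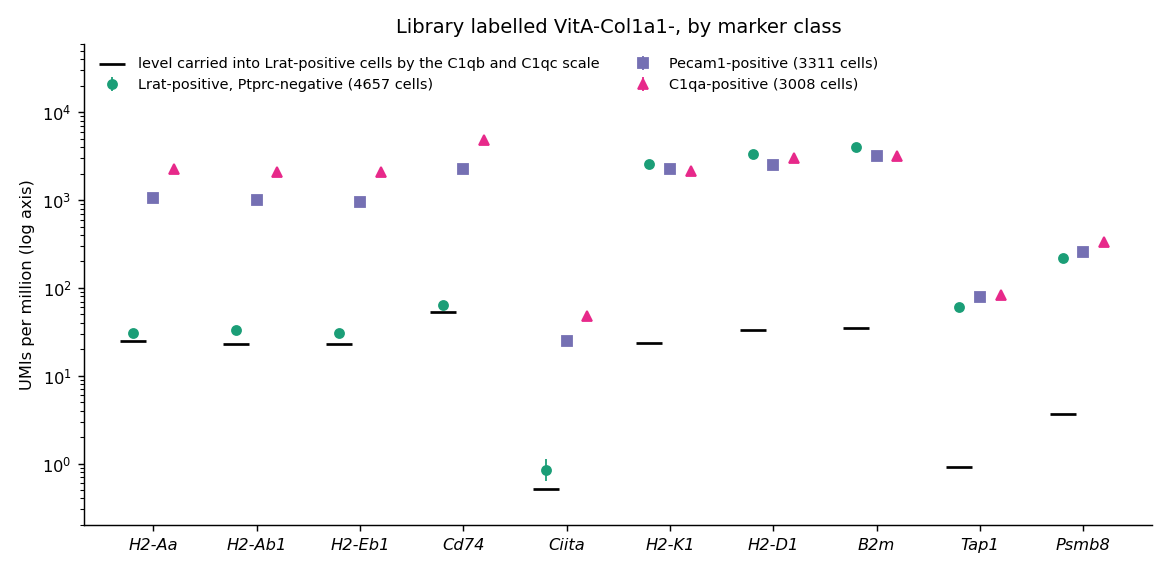
CPM (log axis) of the 10 genes in 3 marker classes of the library labelled VitA-Col1a1-, with exact Poisson 95% intervals. Black bars give the level that macrophage RNA would carry into the Lrat-positive cells on the scale of C1qb and C1qc. Observed class II levels lay just above the bars (Cd74 63.2 against 52.7 CPM), and class I levels lay far above them (B2m 3975 against 35.2 CPM).

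Class I RNA varied with the Lrat level of a cell. In VitA-Col1a1+ chow, summed class I RNA was 3929 CPM in cells without Lrat, 4249 in those above 0 to 250 CPM of Lrat, 4661 above 250 to 1000, 6416 above 1000 to 2000 and 10340 above 2000 (19 cells). The VitA-Col1a1+ DEN+WAD values were 8342, 9516, 14028, 16632 and 17264 CPM. The VitA+Col1a1+ DEN+WAD values were 8569, 12070, 17279, 18394 and 18382 CPM. VitA+Col1a1+ chow stood at 7500 CPM without Lrat (14 cells), 13265 above 250 to 1000 (12 cells), 14372 above 1000 to 2000 and 14095 above 2000. The library labelled VitA-Col1a1- ran from 7382 to 13430 CPM. In all 5 libraries class I RNA was lowest in cells without Lrat. In the VitA+ pair it was no higher above 2000 than above 1000 to 2000, and in the other 3 libraries it was highest above 2000.

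The makeup of the VitA- gate differed between chow and DEN+WAD, with summed stellate markers at 12516 and 26038 CPM and summed endothelial markers at 1208 and 3045 CPM. Of 6 hepatocyte genes 5 were at least 2-fold higher there in DEN+WAD and 1 was lower (median log2 5.17). The hepatocyte gene Alb stood at 19.7 and 174 CPM in the VitA- pair and at 17.25 and 59.9 CPM in the VitA+ pair. Within Lrat levels of the VitA- gate, DEN+WAD over chow in class I RNA was 2.12 in cells without Lrat and 2.24, 3.01, 2.59 and 1.67 in the rising levels, the last resting on 19 chow cells. It thus lay between 1.67 and 3.01 at each level, against 2.64 (2.62 to 2.66) in all cells. In the VitA+ gate the ratio was 1.14 in cells without Lrat (14 chow cells), 1.30 above 250 to 1000 (12 chow cells), 1.28 above 1000 to 2000 and 1.30 above 2000, against 1.28 in all cells. At Lrat above 1000 to 2000 the VitA- gate stood at 0.446 times the VitA+ gate in chow and at 0.904 times in DEN+WAD.

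**Figure D5:**
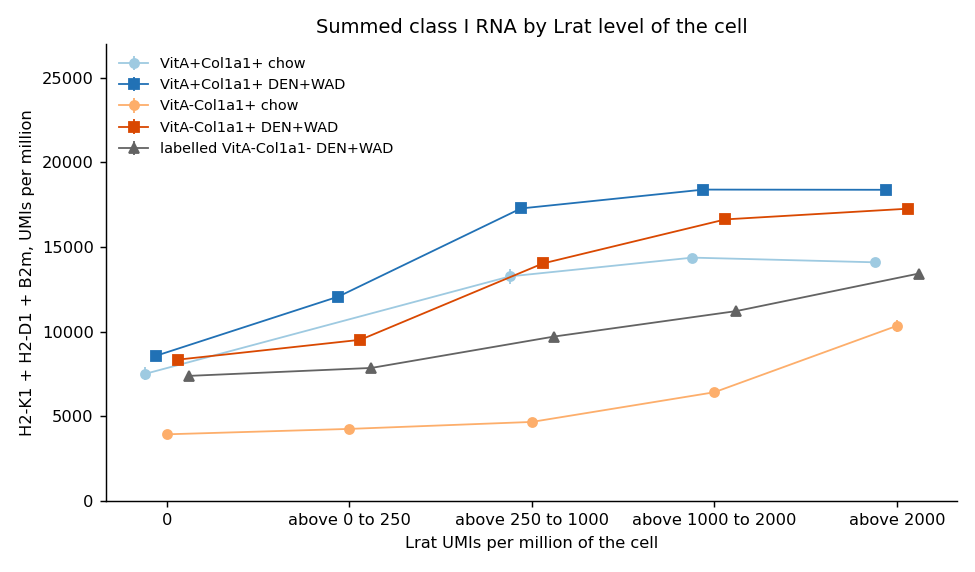
Summed class I RNA (H2-K1, H2-D1 and B2m, CPM) in cells grouped by their Lrat level (CPM of the cell), for the 5 libraries, with exact Poisson 95% intervals. Groups with fewer than 10 cells are left out. At every Lrat level VitA-Col1a1+ chow lay lowest (3929 to 10340 CPM), and the DEN+WAD libraries of both Col1a1+ gates came close at the highest level (17264 and 18382 CPM).

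The genes most like Cd74 and most like B2m were sought by the Pearson correlation of log2(CPM + 1) over 11 combinations of library and marker class, which share libraries and cells, and these values are a description. For Cd74 they were H2-DMa (0.97), Acot1 (0.97), Ccl9 (0.97), Cap1 (0.96) and Spg21 (0.96), among 8558 genes. H2-Ab1, H2-Aa and H2-Eb1 reached 0.98 to 0.99 with Cd74, and Ciita 0.91. For B2m they were Ifih1 (0.96), 1700025G04Rik (0.95), Il3ra (0.95), Rbfox3 (0.94) and Cit (0.94), with H2-D1 at 0.92 and H2-K1 at 0.90. Cd74 and B2m correlated at -0.46.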

How the data were processed

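Live cells from mouse liver were sorted by tomato and green fluorescence and by vitamin A autofluorescence. The gate for vitamin A was set with primary mouse stellate cells as positive and a rat myofibroblast line (BSC) as negative control. The 5 sorts were loaded for droplet sequencing. The labels name 2 versions of the kit and do not say which made each library, so a part of any ratio between libraries that comes from the kit cannot be told apart. The deposited values are counts: the authors made filtered matrices of UMI counts per gene and cell with Cell Ranger on mm10, with version 3.1.0 per the labels and 4 of the 5 file headers, and 6.1.2 in the header for the library labelled VitA-Col1a1-. Reads that fit several genes are not counted at the default settings, which lowers near-identical genes.

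From these counts, UMIs were summed over cells and divided by all UMIs of the same cells (CPM). Cells were classed by at least 1 UMI of Lrat (and none of Ptprc), of Pecam1 or of C1qa. All deposited cells were used, no doublet caller was run, and cells with several of these genes stayed in each class and were left out in an alternative. Shares of cells were computed after drawing 2000 UMIs from each cell with a fixed seed, leaving out shallower cells (4, 172, 21, 106 and 1439 of the libraries in the order of the report), with exact Clopper-Pearson 95% intervals. A count of 0 was given a floor of 3 UMIs. The median depth per cell was 24077, 13232, 22208.5, 16696 and 9106 UMIs. With 1 library per group no p-value was computed, and DEN+WAD was compared with chow by ratios. A gene was counted as 2-fold different only where the mean of both libraries reached 5 CPM. The pathway genes named outside the 10 members were, in each gate, the 2 with the highest and the 2 with the lowest ratio over the fixed lists among those that reached the mean, beside the few that a list's count or a marker check turned on. The members and lists were chosen with earlier results of these data known. The limit of 10 class II UMIs, Cxcl9, the markers of single cells and the Cd3e comparison were chosen after the values had been seen.

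Alternatives were another scaling (edgeR 4.0.16 TMM, R 4.3.3), other minimum levels and folds, the mean over cells in place of summed UMIs, subsets of cells and other reference genes for macrophage RNA. Scripts used scipy 1.17.1, numpy 2.4.6 and pandas 2.3.3 under Python 3.11.15 and were tested on simulated data. Gene positions came from GENCODE on GRCm38 and promoters from RefSeq on GRCm38.p6. Bulk measurements of the study were not used here.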

Additional observations from a re-analysis of the deposited data

Results flagged for a closer look

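A pair of the 10 genes had DEN+WAD to chow ratios of opposite sign in the VitA+ and VitA- gates. Cd74 was at log2 1.16 in VitA+ and at log2 -0.0125 in VitA- (-0.18 to 0.16), which became 0.066 with TMM scaling. Ciita was at log2 -0.61 in VitA+ (16 against 1 UMIs) and at log2 1.66 in VitA- (10 against 1 UMIs). Neither difference between the gates was tested, since each group had 1 library, and for Ciita both intervals held 0.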

How the results depend on the processing

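No paired analysis was possible because each group had 1 library, and no replicate could be left out. TMM scaling shifted all VitA+ ratios by log2 0.19 and all VitA- ratios by 0.08, so that summed class I RNA went from log2 0.36 to 0.55 in VitA+ and from 1.40 to 1.48 in VitA-. By the mean over cells these were 0.38 and 1.36, in Lrat-positive cells 0.35 and 1.48, and without Pecam1-positive cells (an alternative added after seeing the data) 0.345 and 1.47. In VitA- they were 1.41 without the 5% of cells with the most UMIs, 1.42 without the cell with the most class II UMIs and 1.23 at Lrat above 1000 CPM, both of the latter added after seeing the data. Class I RNA was thus higher in DEN+WAD under each alternative run.

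Summed class II RNA had a ratio above 1 under each of these alternatives but changed in size. In VitA- Lrat-positive cells the interval held 1 (1.06, 0.964 to 1.16), so no difference was shown there. Within single Lrat levels class II RNA was lower in VitA+ cells without Lrat (0.345 times) and in VitA- cells above 0 to 250 CPM (0.781 times). In VitA+, from log2 1.56, it was 3.99 in Lrat-positive cells, 0.95 without the deepest 5% of cells, 3.95 without the top class II cell, 3.90 without cells with Epcam, Krt7 or Krt19 (added after seeing the data) and 3.22 at Lrat above 1000 CPM (7 chow UMIs). In VitA-, from 0.24, it was 0.80 by the mean over cells, 0.078 in Lrat-positive cells, 0.98 without the deepest 5%, 1.73 without the top class II cell and 3.62 at Lrat above 1000 CPM (3 chow UMIs). The count of genes at least 2-fold higher in VitA+ went from 1 to 4 with no minimum level, 3 at 1.5-fold, and 0 at a mean of 20 CPM, by the mean over cells, in Lrat-positive cells, without the deepest 5%, without the top cell, without Epcam, Krt7 or Krt19, and at Lrat above 1000 CPM. In VitA- the count stayed between 3 and 6.

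In the library labelled VitA-Col1a1-, the ratio of observed to carried class II RNA went from 1.29 to 1.23 without cells of another class, 1.15 without the deepest 5%, 1.46 with Cd5l, Vsig4, Csf1r and Clec4f as reference and 0.84 with Tyrobp and Fcer1g, which falls on the other side of 1. The class II level of Lrat-positive cells went from 158 to 130 CPM without cells with a C1q UMI, and their share with Cd74 from 9.35% to 36.2% at full depth, 8.35% at 2 UMIs of the gating gene and 8.39% without cells of another class. Of the values that answer a comparison, 37 were within their counting interval or 1.5 times the count, 37 moved and 1 reversed, and of the values for single genes 143 were within it, 51 moved and 0 reversed. The chow libraries, with 259 and 668 cells, set the depth limit for class II genes.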

Other observations

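Other class II pathway and costimulation genes were mostly low in the Col1a1+ libraries. Of 10 other class II pathway genes 2 reached a mean of 5 CPM in each gate. Among these Lgmn, a lysosomal protease, was 2-fold higher in VitA- DEN+WAD (82.0 and 216 CPM) and stood at 226 and 253 CPM in the VitA+ pair. Of 7 costimulation and checkpoint genes 3 reached the mean in VitA-, where Cd40 and Cd274 were higher and Icosl lower. Cd40 reached the mean only through DEN+WAD (3.53 CPM in chow and 7.20 in DEN+WAD). Cd86 had 0 UMIs in all 4 Col1a1+ libraries.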
